A study of Homo sapiens with 12 samples.

Results

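IL1A, IL1B, IL6, IL11, IL24 and LIF are 6 genes that encode secreted cytokines. They were taken by name from the gene count table of an RNA sequencing study, 6 of its 25435 rows, and were followed through all 6 groups of libraries. All 6 passed the filter on low counts, with a lowest count of 74 (IL1A) and a highest of 3257 (IL1B) in any library. The study asked how mRNA levels change when mutant p53 is removed from LMSU, a human line labelled as gastric cancer that carries p53 R175H. Each group had 2 libraries. In the arm without doxycycline, cells labelled GFP_V2 still had p53 R175H and are called the knockout control, and cells labelled GFP_sg-1 were labelled as lacking it and are called the knockout. In the arm with doxycycline, cells with a scramble hairpin (scramble_shRNA) and cells with vector alone still had p53 R175H, and cells with p53_shRNA-1 or p53_shRNA-2, called shRNA 1 and shRNA 2, were labelled as lacking it. The labels do not say whether the knockout is a clone or a pool, nor what drives the hairpins. Ham's F-10 was the medium throughout. Whether replicate libraries are separate cultures is not labelled, so a p-value measures the spread between libraries, which may be technical.

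IL-1 alpha and IL-1 beta, the products of IL1A and IL1B, bind the same receptor, made of IL1R1 and IL1RAP, and switch on NF-kB and AP-1 through MYD88. IL1RN encodes the secreted antagonist that occupies IL1R1 without signalling. IL-6, IL-11 and LIF each use a receptor chain of their own and share gp130, the product of IL6ST, which activates JAK kinases and STAT3. IL-24 belongs to the IL-10 family and signals through pairs of IL20RA, IL20RB and IL22RA1. In many stromal and epithelial cells IL-1 itself induces IL1A, IL1B, IL6, IL11 and LIF, and many of these transcripts are short-lived.

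The promoters of 5 of the 6 genes were matched in the RefSeq table, build GRCh38.p14, and LIF was not matched. They are shown because the letters before the start differ between genes whose levels are compared here. The counts themselves were made on hg19. Each run below holds the 250 bases before the annotated start, on the strand of the gene. Capitals mark matches, on either strand, to AP-1 (TGANTCA), C/EBP (TTGCNNAA), STAT (TTCNNNGAA), the TATA box (TATAAA) or the NF-kB motif. CRE (TGACGTCA) was searched as well and had no match. The run for IL1A is chr2:112784494-112784743, minus strand. The run for IL1B is chr2:112836780-112837029, minus strand. The run for IL6 is chr7:22726950-22727199, plus strand. The run for IL11 is chr19:55370464-55370713, minus strand. The run for IL24 is chr1:206897193-206897442, plus strand.
IL1A: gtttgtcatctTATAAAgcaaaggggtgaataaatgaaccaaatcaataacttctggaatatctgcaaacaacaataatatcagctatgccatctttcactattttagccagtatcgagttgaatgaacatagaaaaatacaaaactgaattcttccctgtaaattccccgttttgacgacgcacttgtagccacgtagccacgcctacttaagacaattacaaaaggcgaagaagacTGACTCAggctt
IL1B: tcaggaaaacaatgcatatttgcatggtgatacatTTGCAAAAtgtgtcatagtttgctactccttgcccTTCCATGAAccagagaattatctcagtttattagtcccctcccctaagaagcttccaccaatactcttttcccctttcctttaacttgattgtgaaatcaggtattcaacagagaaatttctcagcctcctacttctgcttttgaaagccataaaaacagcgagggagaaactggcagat
IL6: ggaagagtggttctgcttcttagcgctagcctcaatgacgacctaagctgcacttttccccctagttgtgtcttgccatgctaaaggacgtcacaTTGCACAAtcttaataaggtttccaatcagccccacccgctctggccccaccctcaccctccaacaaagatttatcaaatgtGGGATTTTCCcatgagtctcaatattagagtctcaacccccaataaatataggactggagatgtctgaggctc
IL11: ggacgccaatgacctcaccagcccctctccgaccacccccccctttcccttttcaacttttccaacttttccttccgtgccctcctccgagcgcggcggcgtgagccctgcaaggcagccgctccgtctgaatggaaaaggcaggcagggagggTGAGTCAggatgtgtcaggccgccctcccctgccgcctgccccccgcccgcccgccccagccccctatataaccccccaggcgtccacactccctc
IL24: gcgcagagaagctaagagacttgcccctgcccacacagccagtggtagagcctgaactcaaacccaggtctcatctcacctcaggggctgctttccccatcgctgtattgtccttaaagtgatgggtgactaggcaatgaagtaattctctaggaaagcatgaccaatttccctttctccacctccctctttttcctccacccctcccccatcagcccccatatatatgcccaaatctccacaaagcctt

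Motifs were counted in windows of 300 bases, from 250 before to 50 after the start. IL1A held AP-1 at -12 to -6 and again at 39 to 45, beyond the bases shown, and TATAAA at -239. The table gives IL1A a further start nearby, whose window held the same AP-1 letters. IL1B held C/EBP at -215 to -208 and STAT at -180 to -172. IL6 held C/EBP at -155 to -148 and NF-kB at -73 to -64. IL11 held AP-1 at -96 to -90, and IL24 held none of the 6 motifs. Of all 35114 windows in the table, 11.3% held NF-kB, 7.71% AP-1, 10.5% C/EBP, 7.66% STAT, 11.5% TATAAA and 1.85% CRE. With the first IL1A window no 2 genes of the 5 shared the same set of matches, and the further IL1A window held AP-1 alone, as did IL11. A match is a description of letters and not a binding site.

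**Figure D1:**
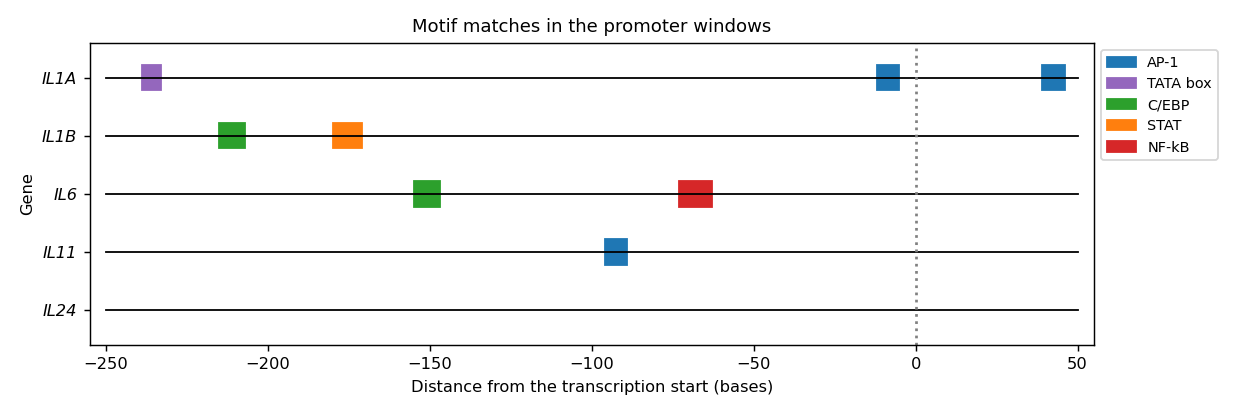
Motif matches in the RefSeq promoter windows of 5 cytokine genes. The x axis is the distance from the annotated start in bases, each row is 1 gene and each coloured box is 1 match; IL24 has no box.

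Library totals ran from 9738094 to 16823246 counts. The biological coefficient of variation over all genes was 15.6% without doxycycline and 3.08% with it, and for the 6 cytokine genes over all libraries it was 6.23% (IL1A) to 9.22% (IL24). Of 10 epithelial markers 5 passed the filter. CDH1, EPCAM, ESRP1, KRT19 and ELF3 had at most 5 counts in any library, while KRT18 (185 to 283 CPM) and KRT8 (63.9 to 208 CPM) were present and KRT7 (11 to 104 counts), CLDN7 (14 to 59 counts) and CLDN4 (6 to 19 counts) were low. Of the gastric genes TFF1, TFF2 and GKN2 had 0 counts, and GATA6 (18.0 to 40.4 CPM) and MUC1 (34 to 114 counts) were tested. Of 13 fibroblast markers 11 were expressed. Their summed level was 3072 to 3933 CPM in the arm without doxycycline and 17622 to 21953 CPM in the arm with it. Monocytes and macrophages are major sources of IL-1 and IL-6 in tissue, and 3 of their 12 markers passed the filter: CD68 (187 to 451 CPM), LAPTM5 (6.13 to 11.1 CPM) and CSF1R (1.13 to 5.01 CPM). PTPRC, CD14, AIF1 and TYROBP had at most 3 counts, the other 5 at most 12, and the 9 T and B cell markers at most 8. Levels here are CPM, read counts relative to the scaled library total (TMM scaling). The arms differ in doxycycline and in construct, which cannot be told apart, so levels are set side by side across arms without a test.

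Within the doxycycline arm the vector cells had the lowest IL1A, IL1B, IL6, IL11 and IL24 of the 4 groups, the scramble cells had far more of all of them, and the hairpins against p53 lay between them, except IL1B and IL11 with shRNA 2, which stood above scramble, and IL11 with shRNA 1, which overlapped with it. In the knockout arm these genes differed little between knockout and control. LIF varied least: its highest library was 1.54 times its lowest, against 11.8 times for IL1A, 9.86 for IL1B, 8.82 for IL6, 7.79 for IL11 and 6.38 for IL24. In bulk RNA, fewer cells making a transcript and less transcript per cell cannot be told apart.

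**Figure D2:**
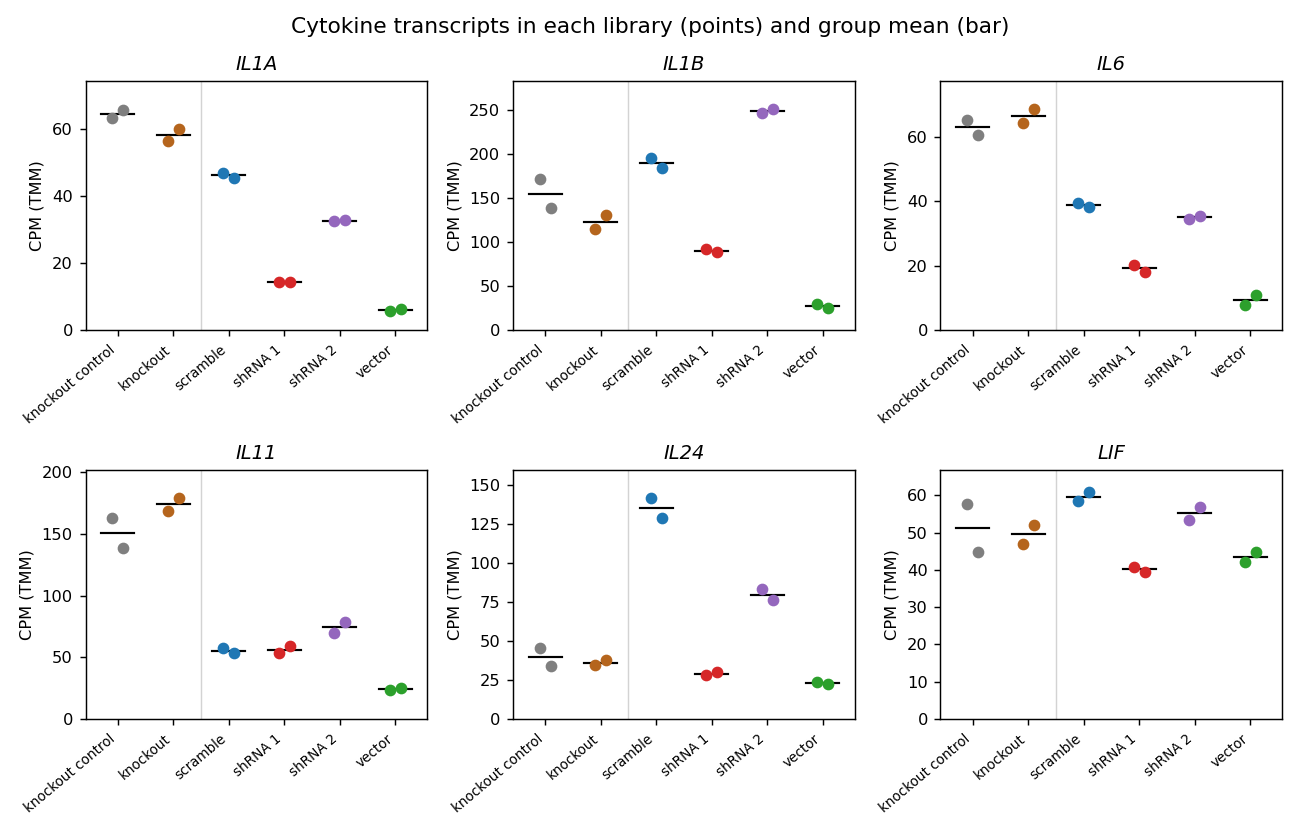
Levels of the 6 cytokine transcripts, in CPM on a linear axis from 0, with 1 point per library and a bar at the mean of the 2 libraries of each group; the grey line separates the arm without doxycycline (left) from the arm with it. Vector has the lowest points in 5 panels, and in the LIF panel the lowest points are those of shRNA 1.

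IL1A encodes IL-1 alpha, which is active as a precursor and can be released by damaged cells. The knockout control libraries were at 63.5 and 65.9 CPM and the knockout libraries at 56.4 and 60.1 CPM. In the doxycycline arm scramble was at 47.0 and 45.4 CPM, shRNA 1 at 14.3 and 14.5 CPM, shRNA 2 at 32.5 and 32.9 CPM, and vector at 5.58 and 6.31 CPM. No 2 groups overlapped, and the order from high to low was knockout control, knockout, scramble, shRNA 2, shRNA 1, vector. On the log2 scale, and against scramble, IL1A fell by 1.68 with shRNA 1 (SE 0.099, edgeR adjusted p 5.6e-06) and by 0.50 with shRNA 2 (SE 0.091, adjusted p 0.0072). Against vector it was higher by 1.27 with shRNA 1 (adjusted p 7.0e-05) and by 2.45 with shRNA 2 (adjusted p 1.3e-07). The decrease with either hairpin is thus a decrease from the scramble level only, and the same libraries stood above vector.

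IL1B encodes IL-1 beta, whose precursor needs cleavage, classically by caspase-1, to become active. The knockout control was at 171 and 139 CPM and the knockout at 115 and 131 CPM. In scramble it was at 195 and 184 CPM, with shRNA 1 at 91.6 and 88.8 CPM, with shRNA 2 at 247 and 251 CPM, and in vector at 29.3 and 25.4 CPM. Again no 2 groups overlapped, but here shRNA 2 was the highest group, above scramble. IL1B fell by 1.07 with shRNA 1 against scramble (SE 0.11, adjusted p 3.1e-04) and was at 0.39 with shRNA 2 (SE 0.11, adjusted p 0.056), which did not pass the threshold of 0.05. Against vector it was higher by 1.72 with shRNA 1 (adjusted p 1.8e-05) and by 3.19 with shRNA 2 (adjusted p 6.5e-08), a 9.10-fold difference.

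The genes of IL-1 alpha and IL-1 beta, neighbours on chromosome 2, did not keep a fixed proportion. The ratio of IL1B counts to IL1A counts, not corrected for transcript length, was 2.11 to 2.69 in control and 2.04 to 2.17 in knockout libraries of the arm without doxycycline. It was 4.06 to 4.16 in scramble, 6.14 to 6.41 with shRNA 1, 7.60 to 7.61 with shRNA 2 and 4.03 to 5.26 in vector. The ratio was thus higher in both libraries of each hairpin than in any scramble or vector library, and lowest in the arm without doxycycline.

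IL6 encodes interleukin-6, an inducer of acute phase proteins. It was at 65.3 and 60.5 CPM in the knockout control, 64.4 and 68.5 CPM in the knockout, 39.4 and 38.3 CPM in scramble, 20.3 and 18.0 CPM with shRNA 1, 34.6 and 35.4 CPM with shRNA 2, and 7.77 and 10.9 CPM in vector. The knockout and its control overlapped, and the 4 groups with doxycycline did not overlap with each other. IL6 fell by 1.02 with shRNA 1 against scramble (SE 0.13, adjusted p 9.9e-04) and was at -0.15 with shRNA 2 (95% interval -0.43 to 0.13, adjusted p 0.56). Against vector it was higher by 1.03 with shRNA 1 (adjusted p 0.0012) and by 1.90 with shRNA 2 (adjusted p 5.2e-06). On the other strand IL6 overlaps exonic bases of STEAP1B and of an antisense RNA in the GENCODE annotation, and the strand setting of the counting is not given in the sources used here, so some IL6 counts could stem from them.

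IL11, whose product is a gp130 cytokine of stroma and bone, followed another order. The knockout control was at 163 and 139 CPM and the knockout at 168 and 179 CPM, above all libraries with doxycycline. In those it was at 57.4 and 53.2 CPM in scramble, 53.3 and 59.0 CPM with shRNA 1, 69.8 and 78.5 CPM with shRNA 2, and 23.0 and 25.4 CPM in vector. Scramble and shRNA 1 overlapped, with a difference of 0.021 (95% interval -0.23 to 0.27, adjusted p 0.95). With shRNA 2, IL11 rose by 0.42 against scramble (SE 0.11, adjusted p 0.041). Against vector it was higher by 1.21 with shRNA 1 (adjusted p 1.1e-04) and by 1.61 with shRNA 2 (adjusted p 4.1e-06).

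LIF encodes leukaemia inhibitory factor, a gp130 cytokine known for keeping mouse stem cells undifferentiated. It was at 57.7 and 44.7 CPM in the knockout control, 47.0 and 52.1 CPM in the knockout, 58.4 and 60.9 CPM in scramble, 40.9 and 39.4 CPM with shRNA 1, 53.5 and 56.9 CPM with shRNA 2, and 42.2 and 44.8 CPM in vector. The knockout control overlapped with the knockout, with shRNA 2 and with vector, and the lowest group was shRNA 1. LIF fell by 0.57 with shRNA 1 against scramble (SE 0.12, adjusted p 0.014), and without any 1 of the scramble or shRNA 1 libraries this was not called (adjusted p 0.078 to 0.12). With shRNA 2 it was at -0.11 (95% interval -0.37 to 0.15, adjusted p 0.66). Against vector it was at -0.12 with shRNA 1 (adjusted p 0.57) and at 0.34 with shRNA 2 (adjusted p 0.063). LIF overlaps LIF-AS1 and another antisense RNA on the other strand in GENCODE, so its counts carry the same uncertainty as those of IL6.

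IL24 encodes an IL-10 family cytokine, first described in differentiating melanoma cells. It was at 45.8 and 34.1 CPM in the knockout control, 34.3 and 37.5 CPM in the knockout, 142 and 129 CPM in scramble, 28.4 and 29.8 CPM with shRNA 1, 83.3 and 76.2 CPM with shRNA 2, and 23.6 and 22.3 CPM in vector. Scramble stood above every other library, and the knockout and its control overlapped. IL24 fell by 2.22 with shRNA 1 against scramble (SE 0.13, adjusted p 5.9e-06), a 4.66-fold decrease, and by 0.76 with shRNA 2 (SE 0.12, adjusted p 0.0039). Against vector it was at 0.34 with shRNA 1 (SE 0.14, adjusted p 0.13) and higher by 1.80 with shRNA 2 (adjusted p 5.4e-06).

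The comparison of the controls asks what the scramble hairpin does to these genes while p53 R175H is present in both groups. All 6 were higher in scramble than in vector, and 15.3% of the 13365 genes tested were called in either direction, 7.10% as higher and 8.16% as lower. The libraries of the 2 groups were apart (both of one group above both of the other) for all 6, against 69.2% of all genes. IL1A was higher by 2.95 (SE 0.11, adjusted p 1.0e-07), IL1B by 2.80 (SE 0.12, adjusted p 2.3e-07), IL24 by 2.56 (SE 0.13, adjusted p 8.2e-07), IL6 by 2.05 (SE 0.14, adjusted p 5.6e-06), IL11 by 1.19 (SE 0.12, adjusted p 5.2e-05) and LIF by 0.45 (SE 0.12, adjusted p 0.024). The median of the 6 was 2.30, against -0.00056 over all genes. For IL1A the scramble level was 7.74 times that of vector, and only 0.142% of genes had a larger absolute change. The summed fibroblast markers were at 18775 to 19476 CPM in scramble and 17622 to 17653 CPM in vector, and 6 of the 11 tested markers were called up and 1 down, with a median of 0.58. DCN, the decorin gene, was higher by 2.22 (adjusted p 1.0e-07) and was named after its values were seen. The part of these markers in the cytokine differences was not tested. Without any 1 of the scramble or vector libraries LIF was not called (adjusted p 0.099 to 0.18). Which of the controls is nearer to untreated cells cannot be told apart, since no untreated group was analysed here.

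The knockdown comparison asks what the hairpins against p53 change relative to the scramble hairpin. With shRNA 1, IL1A, IL1B, IL6, IL24 and LIF fell and IL11 did not pass, while 9.41% of all genes were called, 4.40% up and 5.01% down. The libraries were apart for the 5 that fell, against 62.0% of all genes. The median of the 6 was -1.05, against 0.0037 over all genes. With shRNA 2, IL1A and IL24 fell, IL11 rose, and IL1B, IL6 and LIF did not pass, while 7.74% of all genes were called, 3.58% up and 4.15% down. The libraries were apart for all 6, against 62.6% of all genes. Their median was -0.13, against -0.0035. These comparisons share the scramble libraries. The calls with shRNA 2 rested on few libraries: leaving out any 1 of the scramble or shRNA 2 libraries lost IL1A (adjusted p 0.057 to 0.084), and leaving out scramble replicate 1 (adjusted p 0.055) or shRNA 2 replicate 2 (adjusted p 0.071) lost IL24. IL11 was lost in 10 of the 12 fits without 1 library (adjusted p 0.054 to 0.30) and with a replicate block (adjusted p 0.070). IL1B, at 0.39, was called by DESeq2 (adjusted p 0.037), by limma-voom (adjusted p 0.049) and without the filter (adjusted p 0.019). It was also called when only the compared libraries (adjusted p 4.6e-13) or the 8 libraries of the doxycycline arm (adjusted p 6.2e-09) were fitted. Of the 11 tested fibroblast markers 1 was up and 1 down with shRNA 1, and 2 were up and 1 down with shRNA 2.

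**Figure D3:**
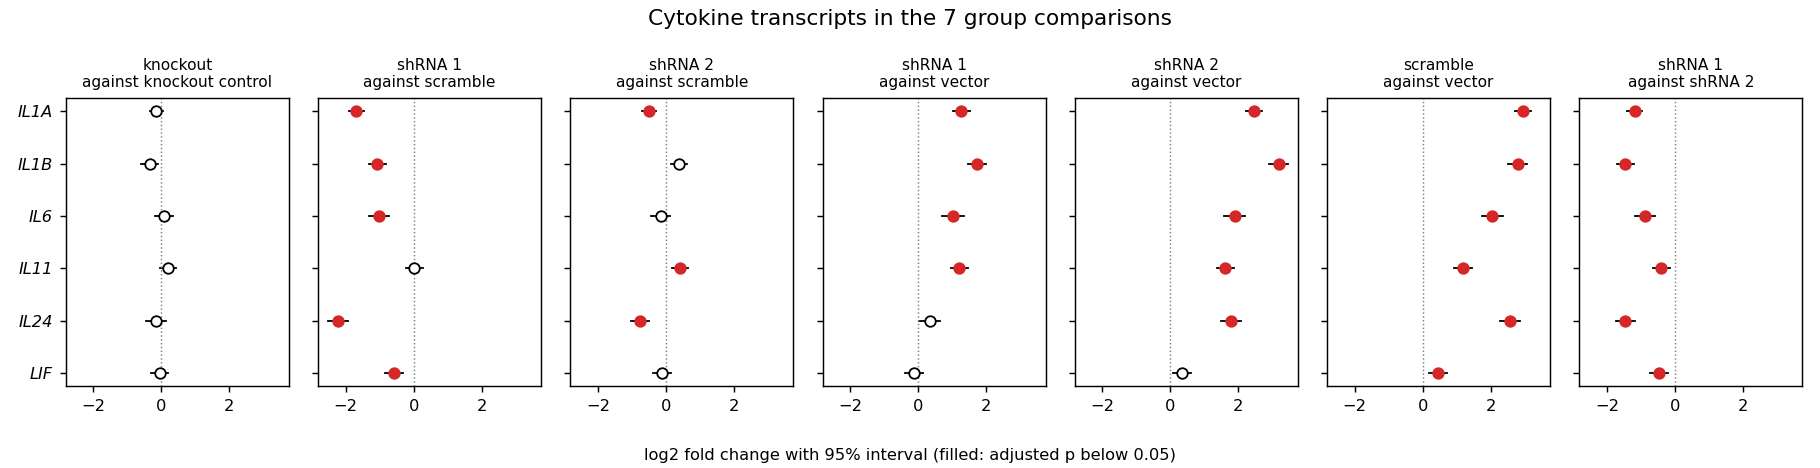
Log2 fold changes of the 6 cytokine genes in 7 comparisons, 1 panel each, with 95% intervals; filled points have an edgeR adjusted p below 0.05. Points lie to the right of 0 for scramble against vector, near 0 for the knockout, and to the left of 0 for shRNA 1 against shRNA 2.

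With vector as the control all values but that of LIF with shRNA 1 were positive. With shRNA 1, IL1A, IL1B, IL6 and IL11 rose and IL24 and LIF did not pass, while 5.78% of all genes were called up and 7.26% down. With shRNA 2, all but LIF rose, while 9.21% of all genes were called up and 11.7% down. The libraries were apart for all 6 with either hairpin, against 68.1% of all genes with shRNA 1 and 71.9% with shRNA 2. The medians of the 6 were 1.12 and 1.85, against 0.0029 and 0.0032 over all genes. IL1A, IL6 and IL24 with both hairpins, IL1B with shRNA 1 and LIF with shRNA 2 were at negative values against scramble and positive values against vector. IL11 with both hairpins and IL1B with shRNA 2 were at positive values against both controls, and LIF with shRNA 1 at negative values against both. Of the 11 tested fibroblast markers 7 were up and 1 down with shRNA 1 (median 0.61), and 7 were up and 2 down with shRNA 2 (median 0.50), and their part was not tested. These comparisons share the vector libraries. IL24 with shRNA 1 and LIF with shRNA 2 passed when only the compared libraries were fitted (adjusted p 0.0032 and 6.0e-05) or the 8 libraries of the doxycycline arm (adjusted p 0.0026 and 5.9e-05).

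The hairpins were also compared with each other, both groups being labelled as lacking p53 R175H. All 6 genes were lower with shRNA 1 than with shRNA 2, and 14.3% of all genes were called, 7.07% as higher and 7.21% as lower. The libraries were apart for all 6, against 66.6% of all genes. IL1B and IL24 differed most, at -1.46 each (SE 0.11, adjusted p 3.2e-05, and SE 0.13, adjusted p 9.4e-05). IL1A was at -1.19 (SE 0.10, adjusted p 5.6e-05), IL6 at -0.87 (SE 0.13, adjusted p 0.0017), LIF at -0.46 (SE 0.12, adjusted p 0.027) and IL11 at -0.40 (SE 0.11, adjusted p 0.034). The median was -1.03, against 0.012 over all genes. The difference in IL11 was lost without any 1 of the 8 libraries of the doxycycline arm (adjusted p 0.0501 to 0.26), and that in LIF without any of them but vector replicate 2 (adjusted p 0.0515 to 0.18), while IL11 was also lost with a replicate block (adjusted p 0.056). The summed fibroblast markers were at 20691 to 21953 CPM with shRNA 1 and 18481 to 18867 CPM with shRNA 2. Of the 11 tested, 1 was higher and 3 were lower with shRNA 1 (median 0.12), and their part in these differences was not tested.

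The knockout comparison asks the same of the construct labelled sg-1 without doxycycline. Of the 6 genes 0 were called by edgeR, 0 by DESeq2 and 0 by limma-voom, and 1, IL1B, had an unadjusted p below 0.05. Of all genes 0.0150% were called and 6.43% had such an unadjusted p. IL1B was at -0.34 (95% interval -0.58 to -0.093, adjusted p 0.64) and IL11 at 0.20 (-0.031 to 0.44, adjusted p 0.78). IL1A was at -0.15 (-0.34 to 0.040, adjusted p 0.78), IL24 at -0.16 (-0.44 to 0.13, adjusted p 0.79), IL6 at 0.079 (-0.18 to 0.34, adjusted p 0.85) and LIF at -0.050 (-0.31 to 0.21, adjusted p 0.91). The intervals use the spread pooled over all groups, which is smaller than that of this arm. The libraries of knockout and control did not overlap for IL1A, IL1B and IL11, 3 of 6 genes, against 23.2% of all genes. The summed fibroblast markers were at 3072 to 3433 CPM in the control and 3743 to 3933 CPM in the knockout, with a median change of 0.35 over the 11 tested. DCN, at 33.3 ± 2.13 and 53.8 ± 2.88 CPM, rose by 0.69 (adjusted p 0.038) and was the single gene of all 13365 called up (0.00748%). The part of these markers was not tested. Without knockout control replicate 2, IL1B was at -0.48 (adjusted p 0.0017) and IL24 at -0.35 (adjusted p 0.019), and 30.3% of all genes were called. Without knockout control replicate 1, IL24 was at 0.080 and LIF at 0.15, so the sign for both turned with a single control library.

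The difference between the arms was tested as the knockout effect minus the mean effect of the hairpins against scramble. It was called for IL1A (0.94, SE 0.12, adjusted p 0.0037) and IL24 (1.34, SE 0.17, adjusted p 0.0041), which fell with both hairpins and were not called in the knockout, and 1.10% of all genes were called, 0.643% as higher. IL6 was at 0.66 (adjusted p 0.080), LIF at 0.29 (adjusted p 0.43), IL1B at 0.0031 (95% interval -0.32 to 0.33) and IL11 at -0.018 (-0.33 to 0.30). The mean joins hairpins that differed from each other. Against scramble IL1B was at -1.07 with shRNA 1 and at 0.39 with shRNA 2, so its small difference averages opposite signs. IL11 was at 0.021 and 0.42, IL1A at -1.68 and -0.50, and IL24 at -2.22 and -0.76, in the same order. IL6 was called by DESeq2 (adjusted p 0.043) and by edgeR without the low-count filter (adjusted p 0.013). With vector as the control of the hairpins the difference was reversed for IL1A (-2.01, adjusted p 1.8e-05) and IL24 (-1.23, adjusted p 0.0025). With that control 5 of the 6 genes were called lower, while 5.35% of all genes were called in either direction. IL1A and IL24 thus had opposite signs with the 2 controls. Without knockout control replicate 1, the difference against scramble was 0.72 for IL6 and 0.49 for LIF. Doxycycline was present in 1 arm only and cannot be told apart from the kind of construct.

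The receptor chains for these ligands were present to different degrees. IL1R1, the signalling IL-1 receptor, was at 31.2 ± 5.31 CPM (SD, n = 2) in knockout control libraries, 38.3 ± 1.38 in knockout libraries, 86.2 ± 3.49 in scramble, 93.9 ± 3.10 with shRNA 1, 136 ± 7.42 with shRNA 2 and 81.0 ± 2.20 in vector. It rose with shRNA 2 by 0.65 against scramble (adjusted p 0.0041) and by 0.75 against vector (adjusted p 5.4e-04). IL1RAP, the accessory chain, was highest with shRNA 1 at 74.8 ± 3.39 CPM, against 30.7 ± 1.90 in scramble, 36.4 ± 0.158 with shRNA 2 and 49.3 ± 1.23 in vector. It rose by 1.28 with shRNA 1 against scramble (adjusted p 4.8e-04) and by 0.60 against vector (adjusted p 0.019). With shRNA 1, therefore, the accessory chain was higher and IL1A and IL1B were lower than in scramble. Against vector IL1RAP, IL1A and IL1B were all higher with shRNA 1 (0.60, 1.27 and 1.72). IL1RAP itself was lower in scramble than in vector by 0.68 (adjusted p 0.0093).

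IL1RN, the antagonist gene, was at 30.4 ± 2.04 CPM in scramble, 22.4 ± 0.258 with shRNA 2, 13.7 ± 1.55 with shRNA 1 and 7.84 ± 0.633 in vector, and at 2.51 ± 0.184 and 2.64 ± 0.671 in the knockout control and knockout. It was higher in scramble than in vector by 1.95 (adjusted p 9.7e-06) and fell with shRNA 1 against scramble by 1.14 (adjusted p 6.7e-04), while with shRNA 2 it was at -0.44 (adjusted p 0.067). Within the doxycycline arm IL1RN thus had the same order of groups as IL1A, IL6 and IL24, and in the knockout arm, where IL1A and IL6 were highest, it was lowest. The decoy receptor IL1R2 was near 0 and was not tested.

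**Figure D4:**
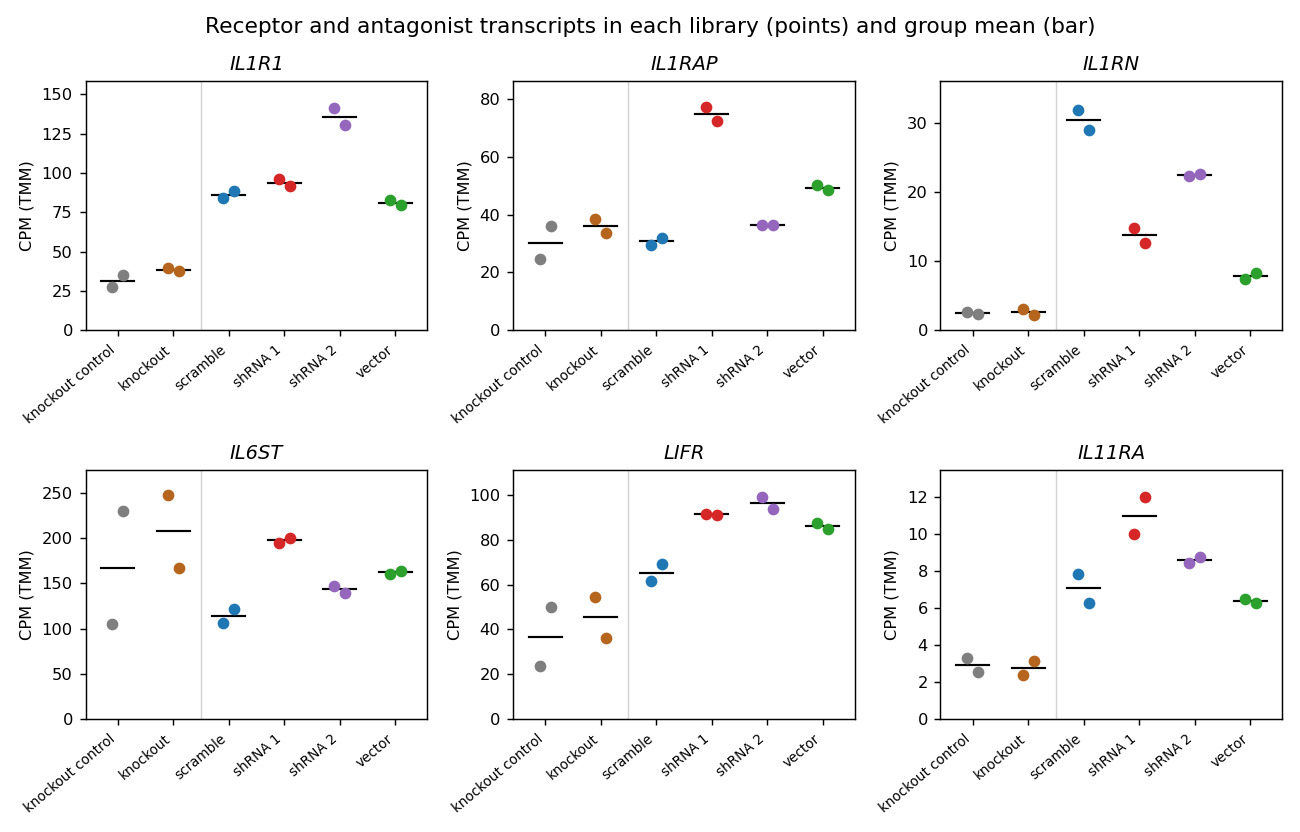
Receptor and antagonist transcripts, in CPM on a linear axis from 0, with 1 point per library and a bar at the group mean. IL1RAP is highest with shRNA 1, IL1R1 with shRNA 2 and IL1RN in scramble; the knockout control libraries lie far apart for IL6ST and LIFR.

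IL6ST, which encodes gp130, was at 114 ± 11.3 CPM in scramble and 198 ± 3.82 CPM with shRNA 1, and the 2 knockout control libraries were at 105 and 230 CPM. IL6ST and LIFR (36.7 to 96.6 CPM as group means) passed the test in none of the comparisons between 2 groups by edgeR. IL11RA, the IL-11 chain, was at 7.07 ± 1.10 CPM in scramble and 11.0 ± 1.43 CPM with shRNA 1, a rise of 0.63 (adjusted p 0.044), and it rose by 0.78 against vector (adjusted p 0.014). IL6R, the IL-6 chain, was low at 1.25 to 2.49 CPM as group means. Of the chains for IL-24, IL22RA1 was at 1.44 to 2.02 CPM and IL20RB at 0.277 to 1.21 CPM as group means, and IL20RA was near 0 and not tested.

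Genes that IL-1 is known to induce were followed as a list of 24, of which 22 were tested. In scramble against vector 18 of 22 rose (7.10% of all genes did), and the list median was 1.13, against -0.00056 over all genes. The 18 include CSF2, at 0 CPM in vector and 0.433 CPM in scramble. CSF2 passed the filter through the arm without doxycycline, where its group means were 23.4 and 15.3 CPM. The same holds for CSF3, which was tested but not called. CXCL8, the neutrophil chemokine, was at 44.4 ± 1.52 CPM in vector and 183 ± 1.30 CPM in scramble (2.04, adjusted p 3.0e-06). PTGS2, the inducible cyclooxygenase, was at 95.5 ± 1.15 and 390 ± 18.9 CPM (2.03, adjusted p 1.9e-05). SOD2, mitochondrial superoxide dismutase, rose by 1.76 (adjusted p 2.3e-07) and TNFAIP3, an inhibitor of NF-kB signalling, by 1.10 (adjusted p 1.0e-05). These genes and IL1A and IL1B were thus higher in the same group.

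With shRNA 1 against scramble 7 of the 22 fell, against 5.01% of all genes, and the other 15 did not pass. The median was -0.36. SOD2 went from 696 ± 14.9 to 357 ± 5.96 CPM (-0.96, adjusted p 4.1e-05) and CXCL8 to 89.8 ± 2.64 CPM (-1.03, adjusted p 5.8e-04). NFKBIA, the inhibitor that NF-kB induces, fell by 0.72 (adjusted p 0.0038) and ICAM1, an adhesion molecule, by 0.49 (adjusted p 0.0046). With shRNA 2 against scramble 4 rose (3.58% of all genes did) and 1 fell (4.15% did, so 1 of 22 is near the background), with a median of 0.013. PTGS2 rose to 771 ± 28.7 CPM (0.98, adjusted p 0.0038), HAS2, a hyaluronan synthase, by 0.76 (adjusted p 0.0023) and MMP1, a collagenase, by 0.77 (adjusted p 0.0058), whereas ICAM1 fell by 0.44 (adjusted p 0.0094). Between the hairpins 9 of 22 were lower with shRNA 1, against 7.21% of all genes, with a median of -0.47, and they include SOD2 (-1.09), CXCL8 (-1.41), PTGS2 (-1.47) and HAS2 (-0.97).

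Against vector 13 of 22 rose with shRNA 1 (5.78% of all genes did) and 18 with shRNA 2 (9.21% did), with medians of 0.73 and 1.27. The 18 again include CSF2, at 0 CPM in vector and 0.433 CPM with shRNA 2. CXCL5, a chemokine, rose with shRNA 1 by 1.17 (adjusted p 3.8e-04). With shRNA 2, PTGS2 rose by 3.01 (adjusted p 1.1e-06) and CXCL8 by 2.42 (adjusted p 5.7e-07). In the knockout 0 of 22 were called by edgeR and 0 by limma-voom, 1 by DESeq2. An unadjusted p below 0.05 was found for 7 of the 22, against 6.43% of all genes. Among them PTGS2 was at 50.9 ± 17.1 CPM in the knockout control and 99.3 ± 8.82 CPM in the knockout (0.97, adjusted p 0.11), MMP3 at 36.9 ± 3.79 and 23.4 ± 1.94 CPM (-0.66, adjusted p 0.20), and SOD2 at 297 ± 15.5 and 237 ± 8.28 CPM (-0.33, adjusted p 0.33). CXCL8 stood at 1030 ± 224 CPM in the knockout control and 1070 ± 27.2 CPM in the knockout, and CXCL5 at 703 ± 171 and 767 ± 3.29 CPM, above every library with doxycycline for both. PTGS2 and SOD2, by contrast, were lower in both groups of the knockout arm than in scramble.

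**Figure D5:**
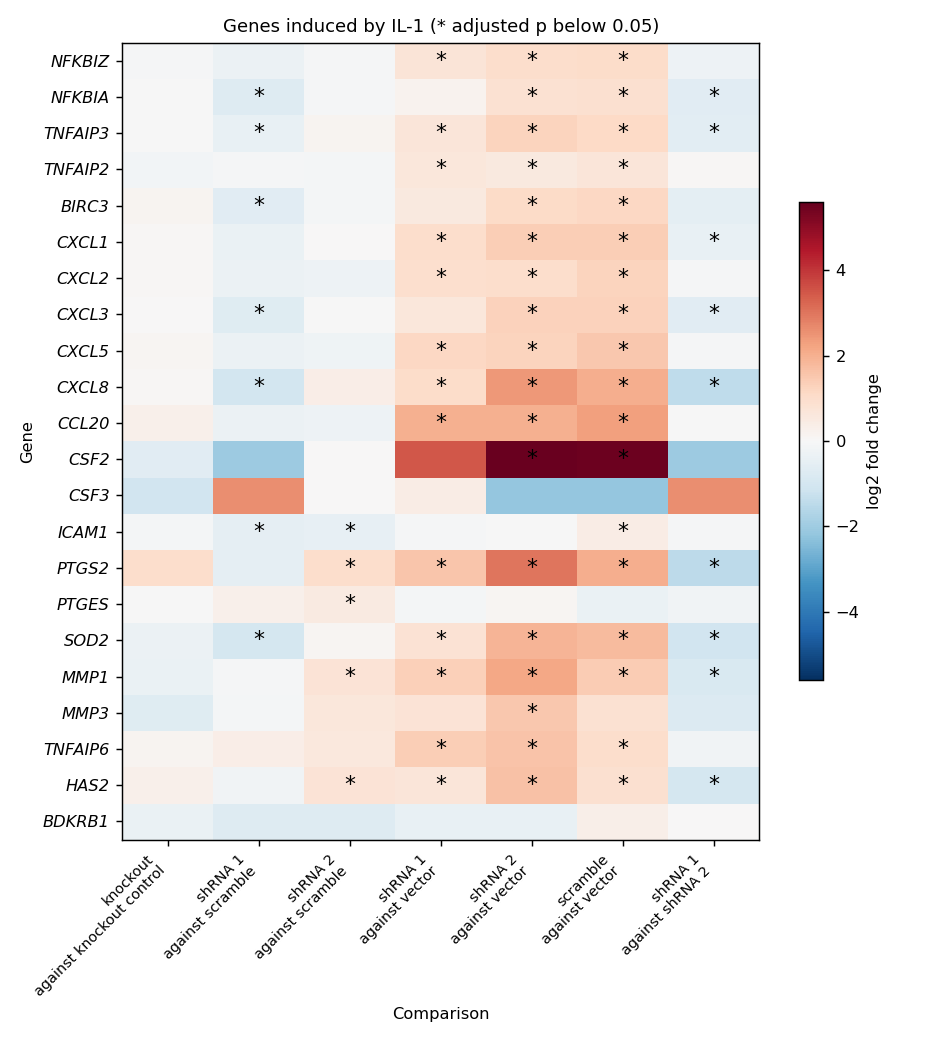
Log2 fold changes of the 22 tested genes that IL-1 is known to induce (rows) in 7 comparisons (columns), red for higher and blue for lower; a star marks an edgeR adjusted p below 0.05. Stars are most frequent in the columns of scramble against vector and shRNA 2 against vector, with 18 each. CSF2, at 0 CPM in vector, is among the 18 in both columns. The column of the knockout has no star.

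Of 28 other genes of the IL-1 family and its adaptors, 20 were tested. The shares of all genes called stand beside the counts in this and the following lists. With shRNA 1 against scramble 1 rose (IL1RAP; 4.40% of all genes) and 4 fell (5.01%), among them IRAK2, a kinase below the IL-1 receptor (-1.05, adjusted p 2.6e-04), IL1RN, and IL18R1, the IL-18 receptor (-0.66, adjusted p 0.028). In scramble against vector 4 rose (7.10%), among them IRAK2 (0.84, adjusted p 3.1e-04) and IL18R1 (1.17, adjusted p 6.0e-04), and 2 fell (8.16%). With shRNA 2 against scramble IL1R1 rose and IL18 fell by 0.43 (adjusted p 0.0496), 2 of 20 against 7.74% of all genes called, which is near the background. Of 15 genes for processing and release of IL-1, 12 were tested. NLRP3, an inflammasome sensor, was at 13.5 ± 0.461 CPM in scramble, 6.93 ± 0.110 with shRNA 1, 9.79 ± 0.191 with shRNA 2 and 4.12 ± 0.576 in vector. It fell by 0.96 with shRNA 1 against scramble (adjusted p 0.0044) and was higher in scramble than in vector by 1.72 (adjusted p 5.2e-05). NLRP1 and NINJ1, a mediator of membrane rupture, also fell with shRNA 1 (-0.50, adjusted p 0.0063, and -0.77, adjusted p 0.0064). Thus 3 of 12 fell with shRNA 1, against 5.01% of all genes, and the other 9 did not pass. NLRP1 also fell with shRNA 2 against scramble (-0.43, adjusted p 0.015), the 1 gene of 12 called there, against 7.74% of all genes. In scramble it was higher than in vector by 0.66 (adjusted p 6.1e-04). PYCARD, the inflammasome adaptor, and CASP5 and NLRC4 had at most 9 counts and were not tested.

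Of 21 genes of the gp130 family and its signalling, 17 were tested. With shRNA 1 against scramble 4 of 17 were called, against 9.41% of all genes: 2 rose, IL11RA and OSMR (0.46, adjusted p 0.033), the latter the oncostatin M receptor, and 2 fell, among them the kinase TYK2 (-0.38, adjusted p 0.026). With shRNA 2 against scramble 3 of 17 were called, against 7.74% of all genes. STAT3 (0.44, adjusted p 0.0044) and OSMR (0.51, adjusted p 0.024) rose, and ADAM17, which sheds the IL-6 receptor, fell by 0.69 (adjusted p 0.0038). STAT3 was at 198 ± 5.28 CPM in scramble, 205 ± 0.771 with shRNA 1 and 268 ± 8.80 with shRNA 2. In scramble against vector, where IL6 rose 4.13-fold, JAK1 was the single gene of the 17 to pass (0.35, adjusted p 0.030), while 15.3% of all genes were called.

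Of 20 STAT3 target genes 12 were tested, and they did not move as a block. With shRNA 1 against scramble 4 fell (5.01% of all genes did), SERPINA1 (-0.98, adjusted p 0.0010), PIM1 (-0.60, adjusted p 0.0020), PIM3 (-0.69, adjusted p 0.0056) and BCL6 (-0.33, adjusted p 0.029). The 1 that rose (4.40% did) was OSMR, which is in both lists. With shRNA 2, BCL6 and OSMR rose (2 of 12, against 3.58% of all genes). SERPINA1 fell by 1.04 (adjusted p 8.3e-04), 1 of 12 against 4.15% of all genes. In scramble against vector 4 of 12 rose (7.10%) and 1 fell (8.16%), and with shRNA 2 against vector 5 rose (9.21%) and 1 fell (11.7%). A fall of 1 of 12 is near the background in both. Among those that rose were BCL6 (0.29 in scramble and 0.72 with shRNA 2), the IL-4 receptor gene IL4R (0.59 and 0.92) and JUNB, an AP-1 gene (0.42 and 0.72). PIM1, a survival kinase, was the gene that fell (-0.30, adjusted p 0.037, and -0.43). With shRNA 1 against vector 2 were called, both down (7.26% of all genes were), and PIM1 was among them (-0.90). SERPINA1, the gene of alpha-1 antitrypsin, was at 157 ± 28.5 and 141 ± 13.7 CPM in the knockout control and knockout, 128 ± 2.54 in scramble, 65.2 ± 2.79 with shRNA 1, 62.2 ± 2.18 with shRNA 2 and 55.7 ± 6.21 in vector. Its difference between the arms was 0.85 (adjusted p 0.038).

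In the lists for the IL-1 family, processing, gp130 signalling, STAT3 targets and the IL-20 receptor family, 0 tested genes were called in the knockout by edgeR, DESeq2 or limma-voom. At an unadjusted p below 0.05 there were 2 of 20, 2 of 12, 0 of 17, 1 of 12 and 0 of 4, against 6.43% of all genes.

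Around IL24 on chromosome 1 lie IL19 and IL20, genes of the same cytokine family, on one side and FAIM3, an IgM receptor gene now called FCMR, on the other. IL20 had 15 and 22 counts in scramble, 11 and 13 with shRNA 2, 3 and 5 both with shRNA 1 and in vector, 5 and 1 in knockout control libraries and 0 and 1 in knockout libraries. It was higher in scramble than in vector by 2.36 (SE 0.49, adjusted p 0.0075) and fell with shRNA 1 against scramble by 1.85 (SE 0.51, adjusted p 0.042), both from few counts. IL20 passed the filter only through scramble and shRNA 2, where it was highest, which favoured the direction of both tests beforehand. Both differences are thus a description. FAIM3 was at 35.7 ± 0.474 CPM in scramble, 9.31 ± 1.96 with shRNA 1, 22.5 ± 2.44 with shRNA 2 and 9.99 ± 1.45 in vector. It fell by 1.93 with shRNA 1 against scramble (adjusted p 4.5e-04), was at -0.66 with shRNA 2 (adjusted p 0.065), and was higher in scramble than in vector by 1.84 (adjusted p 1.5e-04). In RefSeq the gene bodies of IL24 and FCMR overlap, so reads from one could be counted for the other. In the GENCODE annotation used for IL6 and LIF no gene overlapped IL24, and the annotation used for counting is not known. There were 0.249 to 0.279 FAIM3 counts per IL24 count in scramble and 0.403 to 0.466 in vector, so the ratio was not constant. It was 0.266 to 0.377 with shRNA 1 and 0.250 to 0.318 with shRNA 2, both overlapping with scramble. In the knockout control it was 0.347 to 0.427 and in the knockout 0.376 to 0.383. IL20 and FAIM3 were named by the rule for named genes, and their place beside IL24 was looked up after their values had been seen.

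Transcripts such as IL6 and IL1B are degraded through AU-rich elements and stem loops, and 15 factors of mRNA decay and stability were followed, all of them tested. ZC3H12A, which encodes the RNase regnase-1 that cleaves IL6 mRNA, was at 38.2 ± 2.43 CPM in scramble, 27.3 ± 1.65 with shRNA 1, 45.2 ± 0.732 with shRNA 2 and 19.1 ± 1.96 in vector. It was higher in scramble than in vector by 1.0 (adjusted p 3.6e-04) and fell with shRNA 1 against scramble by 0.49 (adjusted p 0.037). ZFP36, the gene of tristetraprolin, also fell with shRNA 1 (-0.56, adjusted p 0.041), and ZFP36L1 with shRNA 2 (-0.35, adjusted p 0.026). ARID5A, which stabilises IL6 mRNA, was higher in scramble than in vector by 0.59 (adjusted p 0.032) and ZFP36L2 lower by 0.45 (adjusted p 0.0034). Of the 15, 2 rose in scramble against vector (7.10% of all genes did) and 1 fell (8.16% did). Against scramble 2 fell with shRNA 1 (5.01% did) and 1 with shRNA 2 (4.15% did). The counts in these comparisons are near the background. Between the hairpins the share was higher, as 3 of 15 were lower with shRNA 1 (7.21% of all genes were) and 0 were higher. They were ZC3H12A (-0.73), KHSRP (-0.35) and CNOT8 (-0.33). Against vector 1 rose and 1 fell with shRNA 1 (5.78% and 7.26% did), and 2 rose and 3 fell with shRNA 2 (9.21% and 11.7% did). In the knockout 0 of 15 were called by edgeR, DESeq2 or limma-voom, and 1 had an unadjusted p below 0.05, near the 6.43% of all genes.

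The genes most like each cytokine gene over the 12 libraries were found by Pearson r of log2 CPM among 12194 protein-coding genes, as a description, since libraries of a group and arm share their source. IL1A was nearest to IL6 (r = 0.99), NLRP3 (0.98) and PID1 (0.98), and the genes nearest to IL6 included IL1A (0.99) and STC1 (0.97). IL1B was nearest to DRAM1 (0.98), SLC20A1 (0.96) and KYNU (0.95). SLC20A1, a phosphate transporter gene, lies 3 genes from IL1A on chromosome 2, and was at 210 ± 3.33 CPM in scramble, 165 ± 1.05 with shRNA 1, 199 ± 2.04 with shRNA 2 and 138 ± 1.04 in vector. IL11 was nearest to HSPA8 (0.98), a chaperone gene that was also highest in the arm without doxycycline, at 1790 ± 171 and 1695 ± 70.3 CPM, against 313 ± 4.64 in vector. IL24 was nearest to NDUFAF7 (0.97), FAIM3 (0.96) and NFKBIA (0.96), and LIF to SQRDL (0.97), FAIM3 (0.93) and ACTN1 (0.91). Among the 6 cytokine genes r ran from 0.12 (IL11 and IL24) to 0.99 (IL1A and IL6), so IL11 and IL24 had unlike patterns.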

How the data were processed

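RNA from 12 LMSU libraries, 6 groups of 2, was sequenced. The authors deposited raw counts per gene symbol for all libraries in 1 table, with no normalisation. Reads were converted with bcl2fastq and aligned with STAR 2.5 to hg19, per the submitters' processing notes. The sources used here do not name the counting tool, its strand setting or the annotation. The edgeR function filterByExpr (minimum count 10) left 13365 of 25435 genes, and totals were scaled by TMM. All 12 libraries were fitted together, with 1 coefficient per group and 6 residual degrees of freedom. The 8 contrasts went through the two-sided quasi-likelihood F test of edgeR 4.0.16 in R 4.3.3. Adjustment was by Benjamini-Hochberg over all tested genes of a comparison, and genes were called below 0.05. Fold changes are log2 values with their SE, and intervals are 95% intervals. Counts of the 2 libraries differed beyond sampling noise within each group (chi-square test).

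The 6 genes, the gene lists, the tests and most alternatives were chosen with earlier results of these data known. Named genes were the 6 cytokine genes, their receptors and antagonists, up to 4 called genes with the smallest adjusted p from each pathway list in each comparison, the 3 genes with the highest Pearson r with each cytokine gene, and the most abundant markers of other cells. Of 195 list entries 194 were in the table, 1 under an older symbol. The transcript of the gene targeted by the constructs and 2 genes that the naming rule picked are not reported here. Alternatives were DESeq2 1.42.0, limma-voom (limma 3.58.1), other size factors and filters (none, or a minimum count of 30), fewer libraries in the fit, a replicate block, a threshold of 0.01, vector as control, and the omission of each library. A replicate block in the knockout arm alone, straight or crossed, was added after the data had been seen. The procedure was tested on simulated data. Promoter motifs were searched with Python 3.11.15, and figures were drawn with matplotlib 3.10.9.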

Additional observations from a re-analysis of the deposited data

Results flagged for a closer look

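All 6 cytokine genes differed between shRNA 1 and shRNA 2, which share the label of lost p53 R175H. The test of the difference gave log2 values of -1.19 for IL1A, -1.46 for IL1B, -0.87 for IL6, -0.40 for IL11, -1.46 for IL24 and -0.46 for LIF, in each case with both shRNA 1 libraries below both shRNA 2 libraries. The knockout effect and the mean hairpin effect against scramble differed for IL1A, by 0.94, and for IL24, by 1.34, and both differences had the opposite sign with vector as the control of the hairpins. No group had enough libraries for a test of single outlying samples.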

How the results depend on the processing

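Over the settings other than leaving out a library, 455 gene-level results kept their direction and side of the threshold, 7 were no longer called, 12 became called and 6 were reversed. Over the fits without 1 library the numbers were 511, 39, 11 and 15. In the difference between the arms, vector as control gave 5 called cytokine genes in place of 2, and 5.35% of all genes in place of 1.10%. It reversed IL1A (-2.01), IL1B (-2.79), IL6 (-1.38), IL24 (-1.23), LIF (-0.16) and SERPINA1 (-0.35). Upper-quartile size factors gave -0.012 for IL1B. The cause was not tested beyond the exchange of control libraries. Without 1 library the called number ran from 0 to 2 in the knockout (2 without knockout control replicate 2), from 0 to 4 with shRNA 2 against scramble (0 without scramble replicate 1 or shRNA 2 replicate 2), and from 2 to 4 in the difference between the arms. Values that changed sign without 1 library ran from -0.35 to 0.080 for IL24 and from -0.22 to 0.15 for LIF in the knockout, from -0.048 to 0.093 for IL11 with shRNA 1 against scramble, and, in the difference between the arms, from -0.13 to 0.11 for IL11 and from -0.14 to 0.17 for IL1B. A group left with 1 library was assumed to vary like the others.

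Deviations of same-numbered libraries from their group means had an r of -0.47 between knockout control and knockout, and of -0.14 to 0.16 otherwise. With 2 libraries a group, these values cannot tell whether the numbers pair libraries, and the labels do not say. A replicate block left 2 cytokine genes called with shRNA 2 against scramble and 5 between the hairpins, and kept the number in the other comparisons. Crossing the numbers in the knockout arm left 0 called, as did the straight block, with 0.564% of all genes called. The share of all genes called depended on the setting. Settings other than those that leave out a library gave 0 to 0.564% in the knockout, 3.68 to 33.2% with shRNA 1 and 2.83 to 32.3% with shRNA 2 against scramble. They gave 5.36 to 41.9% and 11.3 to 49.7% against vector, 7.57 to 44.4% in scramble against vector, 6.39 to 39.8% between the hairpins and 0.239 to 5.35% between the arms. Each low end but that of the knockout came from the threshold of 0.01. The 0.564% came from the crossed block and the 5.35% from vector as control, and the other high ends from fits to fewer libraries. Without 1 library the shares were 0.0073 to 30.3%, 2.48 to 21.2%, 1.72 to 19.3%, 3.64 to 28.0%, 10.3 to 35.3%, 6.44 to 29.8%, 5.0 to 27.5% and 0.183 to 24.5%, in the same order. With 2 libraries a group, changes below about the intervals given could not be seen.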
